A study of Rattus norvegicus with 160 samples.

Results

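Dnmt1, Dnmt3a, Hdac1, Hdac2 and Crebbp are genes for enzymes that write or remove chemical marks on DNA and histones. They were chosen by name, and for each the transcript identifier that maps to its rat symbol was taken from the expression matrix. Of the 5 genes, 4 had a row among the 25903 identifiers measured, 1 row each: Dnmt1 (NM_053354), Dnmt3a (NM_001003957), Hdac1 (NM_001025409) and Crebbp (NM_133381). Hdac2 had no matched row and was not analysed here.

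The animals were male Sprague-Dawley rats. They came from selectively bred lines called LR and HR, which are known for a low and a high locomotor response to a new environment. Each brain was frozen and sectioned, and portions of the amygdala and hippocampus were dissected for RNA at P07, P14, P21 and P75 (adult). Rearing defined 4 groups: LR pups given to a foster HR dam (LR-HR), LR pups given to a foster LR dam (LR-LR), HR pups kept by their HR mother (HR) and LR pups kept by their LR mother (LR). No fostered HR pups are among the samples analysed here, so the HR minus LR difference joins the line of the pup and the line of its mother, which cannot be told apart in it. Each of the 32 groups of 1 region, age and rearing held 5 one-colour arrays, 160 in all. The litters are not given, and the p-values therefore cover no more than the spread from array to array.

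Dnmt1 copies existing DNA methylation onto the new strand when DNA is replicated, while Dnmt3a adds methyl groups at new sites and is the main enzyme of that kind in maturing neurons. Hdac1 and Hdac2 are the catalytic subunits of corepressor complexes that remove acetyl groups from histones. Crebbp encodes CBP, an acetyltransferase that is recruited by phosphorylated CREB and by other transcription factors and adds acetyl groups to histones. DNA methylation and histone acetylation in the brain have been studied as marks that maternal care in early life can change.

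The windows upstream of Dnmt3a, Hdac1 and Crebbp are shown because these are the 3 genes whose levels moved in the same comparison, at P21 in the amygdala. Each sequence is from RefSeq on build GRCr8, covers 250 bases before to 50 bases after the annotated start, and is written 5′ to 3′ on the strand of the gene. Capitals mark the GC box, searched as GGGCGG on both strands (CCGCCC on the strand shown) and counted at every position, so that matches may overlap.
Dnmt3a, chr6:32598352-32598651, plus strand: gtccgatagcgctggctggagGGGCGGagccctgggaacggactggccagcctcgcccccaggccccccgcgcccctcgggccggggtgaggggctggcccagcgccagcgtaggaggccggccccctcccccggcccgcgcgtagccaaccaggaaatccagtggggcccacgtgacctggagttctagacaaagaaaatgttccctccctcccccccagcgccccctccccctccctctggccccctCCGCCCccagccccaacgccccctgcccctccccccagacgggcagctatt
Hdac1, chr5:147165338-147165637, minus strand: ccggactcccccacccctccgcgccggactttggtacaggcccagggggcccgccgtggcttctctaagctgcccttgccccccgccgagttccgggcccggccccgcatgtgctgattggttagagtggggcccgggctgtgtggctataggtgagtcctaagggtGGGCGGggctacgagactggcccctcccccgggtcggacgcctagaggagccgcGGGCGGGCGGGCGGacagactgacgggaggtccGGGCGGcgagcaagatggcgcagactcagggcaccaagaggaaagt
Crebbp, chr10:11842090-11842389, plus strand: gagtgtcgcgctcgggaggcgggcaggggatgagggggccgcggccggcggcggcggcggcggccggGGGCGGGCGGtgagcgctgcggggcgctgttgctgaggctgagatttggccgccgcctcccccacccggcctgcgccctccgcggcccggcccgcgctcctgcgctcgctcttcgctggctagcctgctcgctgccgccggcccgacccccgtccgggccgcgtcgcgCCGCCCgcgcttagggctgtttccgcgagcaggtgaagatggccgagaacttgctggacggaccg
The Dnmt3a window held 2 GC boxes and 21 CG dinucleotides, the Hdac1 window 5 GC boxes and 27 CG, and the Crebbp window 3 GC boxes and 48 CG. Of 33469 such windows in the table, 33.1% held at least 1 GC box, and the median number of CG was 7. Only 1.04% of windows had as many CG as that of Crebbp. The Dnmt3a window begins 91036 bases after the start of the gene's span (chr6:32507316-32621678), at an internal start. The windows of Dnmt1 (chr8:27762792-27763091, minus strand) and Hdac2 (chr20:42102877-42103176, plus strand) each held 1 GC box, with 17 and 33 CG. The match of a short motif describes these letters and was not set against binding of any factor.

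Levels are log2 values of the deposited intensities, and a difference is the first-named group minus the second on that scale. The regions were normalized separately and each gene is read by its own probes, so levels were not set against each other between regions or between genes. A gene was called in a comparison when its adjusted p (limma, Benjamini-Hochberg over all transcripts of the fit) was under 0.05. All 4 genes lay above the random control sequence (log2 5.89) on every hippocampal array. No such check is reported for the amygdala, so the distance of its levels from background is not known here. Neuron markers (9 measured of 10 listed) averaged 12.08 to 13.00 over the amygdala groups and 10.42 to 11.79 over the hippocampus groups, and choroid plexus markers (7 of 8) averaged 6.16 to 7.10 and 6.39 to 6.89. No marker intensity was 0. Fewer cells of a type and less RNA per cell cannot be told apart in dissected tissue. In the hippocampus at P21 each LR-LR array had a mean correlation of 0.741 to 0.767 with the rest of its group. These values do not by themselves separate the arrays. The division into 2 sets, numbers 1 to 3 and numbers 4 and 5, was made after the arrays had been compared. LR array 5 stood apart from its group (0.662, against 0.829 to 0.843 for the other LR arrays).

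In 96 comparisons of a gene between rearing groups (4 genes, 3 differences, 4 ages, 2 regions), 11 were called, 4 higher and 7 lower. Of these, 10 were in the amygdala, at P14, P21 and in adults, and 1 was in the hippocampus. Crebbp and Dnmt3a had 4 calls each, Hdac1 had 2 and Dnmt1 had 1. The share of all transcripts called in the same comparison stands beside each count. In the amygdala comparisons that hold these calls that share was 15.7% to 37.7%, except for LR-LR minus LR at P21.

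**Figure D1:**
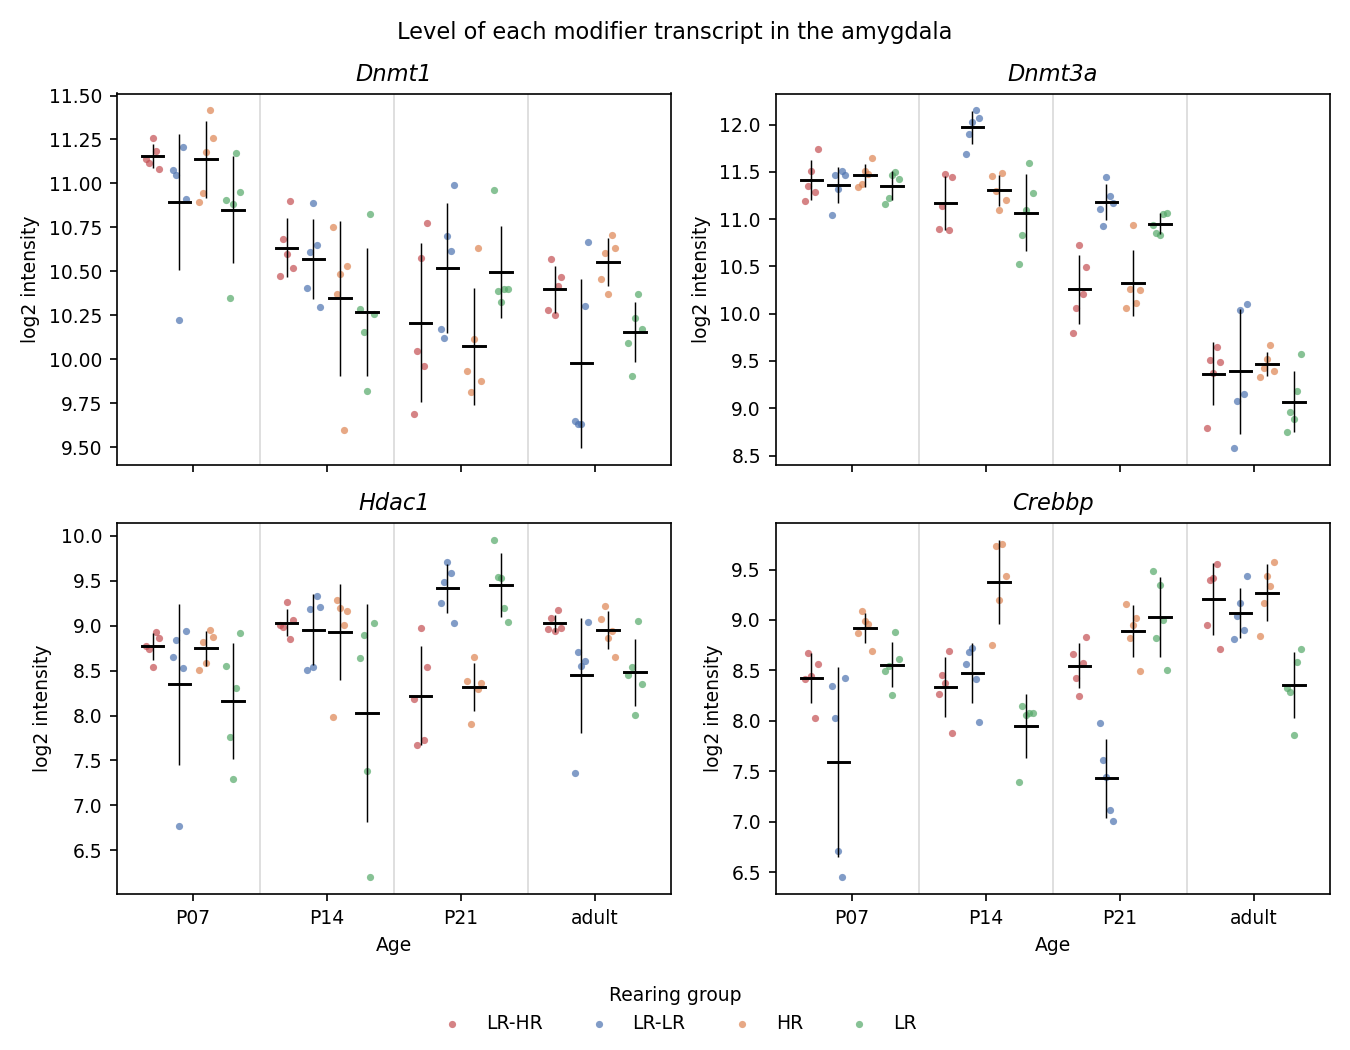
Log2 intensity of Dnmt1, Dnmt3a, Hdac1 and Crebbp in the amygdala (1 panel per gene) at P07, P14, P21 and P75, with 1 point per array, the groups LR-HR, LR-LR, HR and LR from left to right within an age, and bars for group means. In all 4 groups the mean of Dnmt3a is lower at P21 than at P14, and lower at P75 than at P21. At P21 the LR-HR and HR arrays of Hdac1 (7.67 to 8.97) lie under all LR-LR and LR arrays (9.03 to 9.96). How many of all transcripts split in this way was not counted.

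Dnmt3a fell with age in both regions. Over all 20 arrays of an age in the amygdala it averaged 11.40 ± 0.17 at P07, 11.38 ± 0.44 at P14, 10.68 ± 0.48 at P21 and 9.32 ± 0.41 in adults (SD). It fell by 0.70 ± 0.10 between P14 and P21 (SE, adjusted p = 6.3e-08) and by 1.35 ± 0.10 between P21 and P75 (adjusted p = 1.7e-18), and was not called between P07 and P14 (-0.02 ± 0.10). All 4 rearing groups ended low: P75 minus P07 was -2.05 in LR-HR, -1.97 in LR-LR, -2.0 in HR and -2.28 in LR. The single steps differed between groups. P14 minus P07 was -0.25 in LR-HR, 0.61 in LR-LR, -0.16 in HR and -0.29 in LR. P21 minus P14 was -0.91, -0.79, -0.98 and -0.12 in the same order. In the hippocampus Dnmt3a averaged 9.86 ± 0.48, 9.56 ± 0.46, 9.15 ± 0.89 and 8.16 ± 0.76 at the 4 ages (SD, n = 20). The last step was called there as well (-0.99 ± 0.20, adjusted p = 0.000241), and the earlier steps were not (-0.30 ± 0.20 and -0.41 ± 0.20). The last step in the hippocampus was -1.45 in LR-HR, -0.54 in LR-LR, -1.71 in HR and -0.25 in LR. The step to P21 was -0.63 (adjusted p = 0.0138) without LR-LR arrays 4 and 5 of P21 and -0.07 (0.813) without LR-LR arrays 1 to 3, which are described with the hippocampal comparisons. Among all transcripts, 27.6%, 15.3% and 19.7% were called in the 3 amygdala steps, and 12.1%, 20.2% and 15.2% in the 3 hippocampal ones.

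Between rearing groups in the amygdala, Dnmt3a was called at P14 and P21. At P14 the LR-HR arrays read 10.90, 11.14, 11.47, 10.88 and 11.44, and the LR-LR arrays read 11.69, 11.90, 12.03, 12.15 and 12.07. Every LR-HR array lay below every LR-LR array. The difference was -0.80 ± 0.20 (adjusted p = 0.00584), from means of 11.17 ± 0.29 in LR-HR and 11.97 ± 0.18 in LR-LR (SD, n = 5 each). It was the only call among the 4 genes in this comparison, where 22.3% of all transcripts were called (13.7% lower) and 20.4% had groups that did not overlap.

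LR-LR pups stood high in Dnmt3a at P14 against pups left with their own mother too. The LR arrays read 10.53, 10.83, 11.10, 11.59 and 11.28 (mean 11.06 ± 0.41), all under the LR-LR arrays given above. LR-LR minus LR was 0.90 ± 0.20 (adjusted p = 0.00118), again 1 of 4 genes called, in a comparison in which 37.7% of transcripts were called (24.9% higher) and 25.3% had groups apart. The HR arrays (11.45, 11.29, 11.10, 11.49 and 11.20) spread within the range of the LR arrays, and HR minus LR was 0.24 ± 0.20 (adjusted p = 0.435). The 2 called differences share the LR-LR arrays, so they are not separate evidence of one another.

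At P21 Dnmt3a in the amygdala was lower in LR-HR than in LR-LR, and lower in HR than in LR. The LR-HR arrays read 9.79, 10.06, 10.72, 10.21 and 10.49, and the LR-LR arrays read 11.10, 10.93, 11.45, 11.24 and 11.17. These groups did not overlap. LR-HR minus LR-LR was -0.92 ± 0.20 (adjusted p = 0.00317), which is 0.527 times the LR-LR level on the linear scale. The HR arrays read 10.06, 10.26, 10.94, 10.11 and 10.25, and the LR arrays 10.94, 10.85, 10.83, 11.06 and 11.07. Here 1 HR array, the highest, lay within the LR range, and the others lay below it. HR minus LR was -0.63 ± 0.20 with an adjusted p of 0.0410, close to the threshold: it was 0.117 after quantile normalization (difference -0.46), 0.0671 when only these 2 groups were fitted, and 0.0586 to 0.0974 in 9 of the 10 fits that left out 1 array. LR-LR minus LR was 0.23 ± 0.20 at this age. In adults the groups averaged 9.36 in LR-HR, 9.39 in LR-LR, 9.47 in HR and 9.07 in LR, and none of the 3 differences was called (adjusted p 0.271 to 0.954).

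Hdac1, the deacetylase, was lower at P21 in LR-HR and HR than in LR-LR and LR. The HR pups differ from the others in line as well as in dam. The LR-HR arrays in the amygdala read 8.19, 7.67, 8.97, 7.73 and 8.54 (mean 8.22 ± 0.55), and the LR-LR arrays read 9.26, 9.49, 9.71, 9.59 and 9.03 (9.41 ± 0.27). The HR arrays read 8.38, 7.91, 8.65, 8.29 and 8.36 (8.32 ± 0.27), and the LR arrays read 9.96, 9.54, 9.53, 9.20 and 9.04 (9.45 ± 0.36). All 10 arrays of pups with HR dams lay below all 10 arrays of pups with LR dams. The share of all transcripts that split in this way was not counted.

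The difference in Hdac1 at P21 was -1.20 ± 0.25 for LR-HR minus LR-LR (adjusted p = 0.00201) and -1.13 ± 0.25 for HR minus LR (adjusted p = 0.00522), or 0.436 and 0.456 times the level of the pups with LR dams. These comparisons share no array. LR-LR minus LR was -0.04 ± 0.25 (adjusted p = 1). In the foster comparison at this age 3 of the 4 genes were called (1 higher, 2 lower) against 21.6% of all transcripts (6.14% higher, 15.5% lower), and 3 had groups apart against 15.6%. In the line comparison 2 of the 4 were called, both lower, against 15.7% of all transcripts (11.6% lower), and 1 had groups apart against 12.4%.

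At the other ages Hdac1 was not called in the amygdala, and its arrays spread widely in LR pups. At P14 the LR arrays read 8.63, 8.90, 7.38, 6.20 and 9.03, while the other 3 groups ran between 7.99 and 9.34. HR minus LR was 0.90 ± 0.40 (adjusted p = 0.119) and LR-LR minus LR was 0.93 ± 0.40 (adjusted p = 0.0760) at that age. The first was called without LR array 5 (adjusted p = 0.0476) or HR array 1 (0.0482), and the second without LR array 2 (0.0373) or 5 (0.0280). Without LR array 4, the lowest, they were 0.44 (adjusted p = 0.354) and 0.47 (0.257). In adults LR-HR averaged 9.03 ± 0.10 and LR-LR 8.45 ± 0.64, with a difference of 0.58 ± 0.25 that missed the threshold (adjusted p = 0.0988) and passed it without LR-LR array 5 (0.0350). It was 0.30 without LR-LR array 1 (adjusted p = 0.301) and 0.38 after quantile normalization (0.307). Over all rearing groups Hdac1 kept an amygdala mean between 8.51 and 8.85 at the 4 ages, and no step was called. That mean joins groups that moved in opposite directions. P21 minus P14 was -0.82 in LR-HR, 0.46 in LR-LR, -0.61 in HR and 1.42 in LR. P75 minus P21 was 0.81, -0.96, 0.63 and -0.97 in the same order.

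Crebbp, the acetyltransferase, ran the other way from Dnmt3a and Hdac1 in the foster comparison at P21. The LR-HR arrays read 8.66, 8.43, 8.24, 8.57 and 8.83 (mean 8.55 ± 0.22), and the LR-LR arrays read 7.98, 7.61, 7.45, 7.11 and 7.01 (7.43 ± 0.39). All LR-HR arrays were above all LR-LR arrays, and the difference was 1.11 ± 0.22 (adjusted p = 0.00162), or 2.17-fold. The HR arrays (9.16, 8.83, 8.95, 9.02 and 8.49) and the LR arrays (9.48, 8.82, 9.34, 9.0 and 8.50) covered nearly the same range, with a difference of -0.14 ± 0.22 (adjusted p = 0.718).

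The LR-LR group was thus the low one for Crebbp at P21. LR-LR minus LR was -1.60 ± 0.22 (adjusted p = 0.00892), 0.331 times the LR level, with no overlap. Crebbp was 1 of 3 transcripts called among 22197 in that comparison (0.0135%) and the only one called lower (0.00451%), while 1.74% of transcripts had groups apart. The difference was -1.52 without LR array 3 (adjusted p = 0.0617) and -1.49 without LR-LR array 5 (0.0551), both just outside the threshold. This difference and the foster one share the LR-LR arrays.

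Crebbp was higher in HR than in LR pups in the amygdala at P14 and in adults. At P14 the HR arrays read 8.75, 9.74, 9.20, 9.76 and 9.44, and the LR arrays read 7.39, 8.15, 8.06, 8.08 and 8.07. The groups did not overlap and differed by 1.43 ± 0.23 (adjusted p = 8.8e-05), or 2.69-fold. Crebbp was the 1 gene of the 4 called, against 22.8% of all transcripts (12.8% higher), and 13.9% had groups apart. The fostered groups lay between them, at 8.33 ± 0.30 in LR-HR and 8.48 ± 0.30 in LR-LR.

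In adults the HR arrays read 8.84, 9.17, 9.43, 9.34 and 9.57, and the LR arrays read 8.33, 8.28, 7.86, 8.59 and 8.71. The groups were again apart, and the difference was 0.92 ± 0.21 (adjusted p = 0.00233). It was the 1 call of the 4 genes, against 28.1% of all transcripts (20.2% higher), and 20.9% had groups apart. Both fostered groups of adults were near HR, at 9.21 ± 0.36 in LR-HR and 9.07 ± 0.24 in LR-LR. LR-LR minus LR was 0.72 ± 0.21 with no overlap but was not called (adjusted p = 0.121), in a comparison where 0.658% of transcripts were called (1.74% with the replicate number as a block) and 1.96% had groups apart.

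At P07 no gene of the 4 was called in the amygdala in any of the 3 comparisons, in which 0.0901% (foster), 0.131% (line) and 0.0586% (LR-LR minus LR) of transcripts were called. With the replicate number as a block these shares were 1.82%, 0.374% and 0.18%. Crebbp in LR-LR read 8.34, 8.03, 6.71, 6.45 and 8.42, with 2 arrays well under the rest. LR-HR minus LR-LR was 0.83 ± 0.30 (adjusted p = 0.230) and LR-LR minus LR was -0.97 ± 0.30 (adjusted p = 0.372). These were the only comparisons of the 4 genes with an unadjusted p under 0.05 at that age, 1 in each.

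Across ages Crebbp averaged 8.37, 8.53, 8.47 and 8.98 in the amygdala, and its last step was called higher (0.50 ± 0.12, adjusted p = 0.00127). That step differed in sign between groups: P75 minus P21 was 0.66 in LR-HR, 1.64 in LR-LR, 0.38 in HR and -0.67 in LR. Over the pups left with their own mothers it was -0.15 (adjusted p = 0.604), so the groups did not share this step. In the hippocampus the last step was 0.53 ± 0.16 (adjusted p = 0.0162), and it was not called after quantile normalization (adjusted p = 0.0591), over pups left with their own mothers (0.773), without the arrays numbered 3 (0.0831) or 5 (0.135), or without the LR-LR arrays 1 to 3 of P21 (0.0891).

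Dnmt1, the maintenance methyltransferase, fell in the first step with age in both regions. In the amygdala it averaged 11.01 ± 0.29 at P07, 10.46 ± 0.33 at P14, 10.32 ± 0.38 at P21 and 10.27 ± 0.34 in adults (SD, n = 20). The drop lay in the first step, which was -0.56 ± 0.10 (adjusted p = 7.4e-06), and the later steps were not called (-0.13 ± 0.10 and -0.05 ± 0.10). In the hippocampus the averages were 9.74, 9.10, 9.14 and 9.0, with a first step of -0.64 ± 0.17 (adjusted p = 0.00446). There the step was -0.60 in LR-HR, -1.18 in LR-LR, -1.0 in HR and 0.22 in LR, and over pups left with their own mothers it was -0.39 (adjusted p = 0.297).

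No amygdala comparison of Dnmt1 between rearing groups was called at any age (adjusted p 0.124 to 1). The nearest were in adults. The adult LR-HR arrays read 10.28, 10.57, 10.25, 10.41 and 10.47 against 9.65, 9.63, 9.63, 10.30 and 10.67 in LR-LR, a difference of 0.42 ± 0.20 (adjusted p = 0.124, and 0.0151 without LR-LR array 5). The adult HR arrays read 10.46, 10.60, 10.37, 10.71 and 10.63 against 10.09, 9.91, 10.23, 10.37 and 10.17 in LR, a difference of 0.40 ± 0.20 (adjusted p = 0.136). After quantile normalization these differences were 0.16 (adjusted p = 0.558) and 0.19 (0.463). In the first pair the LR-LR arrays fell below, within and above the range of the LR-HR arrays, and in the second the lowest HR array met the highest LR array without overlap. Groups apart were found in 20.9% of transcripts in that line comparison.

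The 1 call in the hippocampus was that of Dnmt1 at P14, between the lines. The HR arrays read 8.13, 8.42, 8.12, 8.96 and 9.52 (mean 8.63 ± 0.60), and the LR arrays read 9.62, 9.60, 9.96, 9.65 and 9.56 (9.68 ± 0.16). The groups did not overlap, although the highest HR array came close to the lowest LR array. HR minus LR was -1.05 ± 0.29 with an adjusted p of 0.0493, just inside the threshold. In this comparison 2.76% of transcripts were called (0.807% lower), or 5.72% with the replicate number as a block, and 3.83% had groups apart. The adjusted p was 0.0785 when only these groups were fitted and 0.0573 to 0.144 in 9 of the 10 fits that left out 1 array. LR-LR minus LR was -0.83 ± 0.29 at that age, with no overlap and no call (adjusted p = 0.167), where 1.53% of transcripts were called (4.7% with the replicate number as a block) and 5.14% had groups apart.

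**Figure D2:**
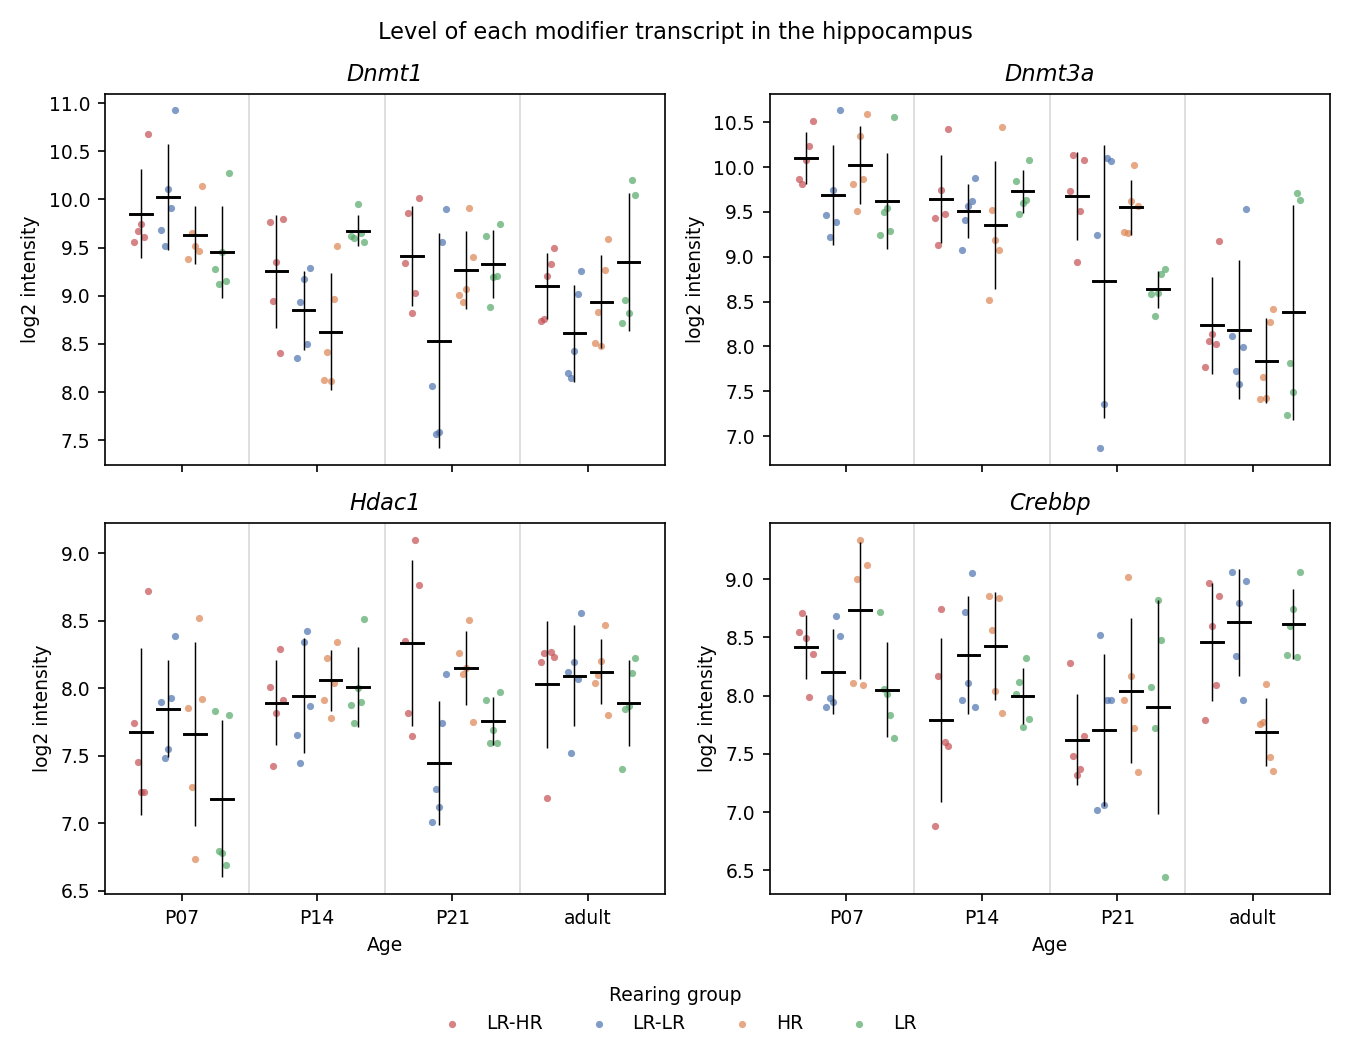
Log2 intensity of the same 4 genes in the hippocampus at P07, P14, P21 and P75, with 1 point per array, the groups LR-HR, LR-LR, HR and LR from left to right within an age, and bars for group means. The LR-LR arrays of Dnmt1 and Dnmt3a at P21 span 7.57 to 9.90 and 6.87 to 10.10, wider than the other groups of that age.

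Hippocampal differences at P21 turned on the 2 sets of LR-LR arrays. For Dnmt3a the LR-HR arrays read 9.73, 10.13, 8.94, 9.51 and 10.08, and the LR-LR arrays 9.25, 6.87, 7.36, 10.10 and 10.07. For Dnmt1 the LR-HR arrays read 9.34, 9.86, 8.82, 9.02 and 10.01, and the LR-LR arrays 8.07, 7.57, 7.58, 9.56 and 9.90. LR-LR arrays 4 and 5 lay among the LR-HR arrays in both genes, and arrays 2 and 3 lay far below.

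No gene of the 4 passed the test at P21 in the foster comparison with all arrays. LR-HR minus LR-LR in the hippocampus at P21 was 0.88 ± 0.40 for Dnmt1 (adjusted p = 0.253), 0.95 ± 0.47 for Dnmt3a (0.288), 0.89 ± 0.30 for Hdac1 (0.128) and -0.08 ± 0.40 for Crebbp (0.938). Of all transcripts 0.969% were called, and 2 of the 4 genes had an unadjusted p under 0.05. Without LR-LR arrays 4 and 5, an alternative chosen after the arrays had been compared, the differences were 1.67 (adjusted p = 0.000892), 1.85 (0.00181) and 1.21 (0.00996) for Dnmt1, Dnmt3a and Hdac1. Without LR-LR arrays 1 to 3 instead they were -0.32 (adjusted p = 0.970), -0.40 (0.946) and 0.41 (0.946), so the sign for both methyltransferases turned with the arrays kept. Leaving out array 5 alone gave calls for Dnmt1 (0.0488) and Hdac1 (0.0381). Mature oligodendrocyte markers (10 of 10 measured) averaged 11.01 in LR-HR and 9.45 in LR-LR at this age, with summed intensities of 40607 to 49830 and 4957 to 36546, and 3 of the 10 were called higher in LR-HR. Their part in the result was not tested.

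Other hippocampal comparisons of the 4 genes between rearing groups were not called. The share of all transcripts called was 0.583% in the foster comparison at P14, 0.0116% in LR-LR minus LR at P21, and 0.00386% (foster) and 0% (LR-LR minus LR) in adults. At most 1 of the 4 genes had an unadjusted p under 0.05 in any of these comparisons. At P21 every HR array of Dnmt3a (9.28, 9.26, 9.62, 10.02 and 9.56) lay above every LR array (8.58, 8.34, 8.59, 8.80 and 8.86). HR minus LR was 0.92 ± 0.47 (limma, adjusted p = 0.736). That SE and p come from the fit of all 4 rearing groups, which includes the widely spread LR-LR arrays. They do not measure the spread of the HR and LR arrays alone. In adults every HR array of Crebbp (7.76, 7.78, 8.10, 7.47 and 7.35) lay below every LR array (8.35, 8.60, 8.74, 8.33 and 9.06), and the difference was -0.92 ± 0.26 (adjusted p = 0.286). Groups apart were found in 2.78% and 1.42% of all transcripts, and 0% and 0.0502% were called. At P07, LR-LR minus LR for Dnmt1 was 0.57 ± 0.29 (adjusted p = 0.435), and with the replicate number as a block the same difference had an adjusted p of 0.0470. At the P07 comparisons in the hippocampus 2.91% (foster), 0.147% (line) and 2.59% (LR-LR minus LR) of transcripts were called. With the replicate number as a block the shares were 8.74% (foster), 2.57% (line) and 6.42% (LR-LR minus LR) at P07, and 0.0154% for the foster comparison in adults.

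**Figure D3:**
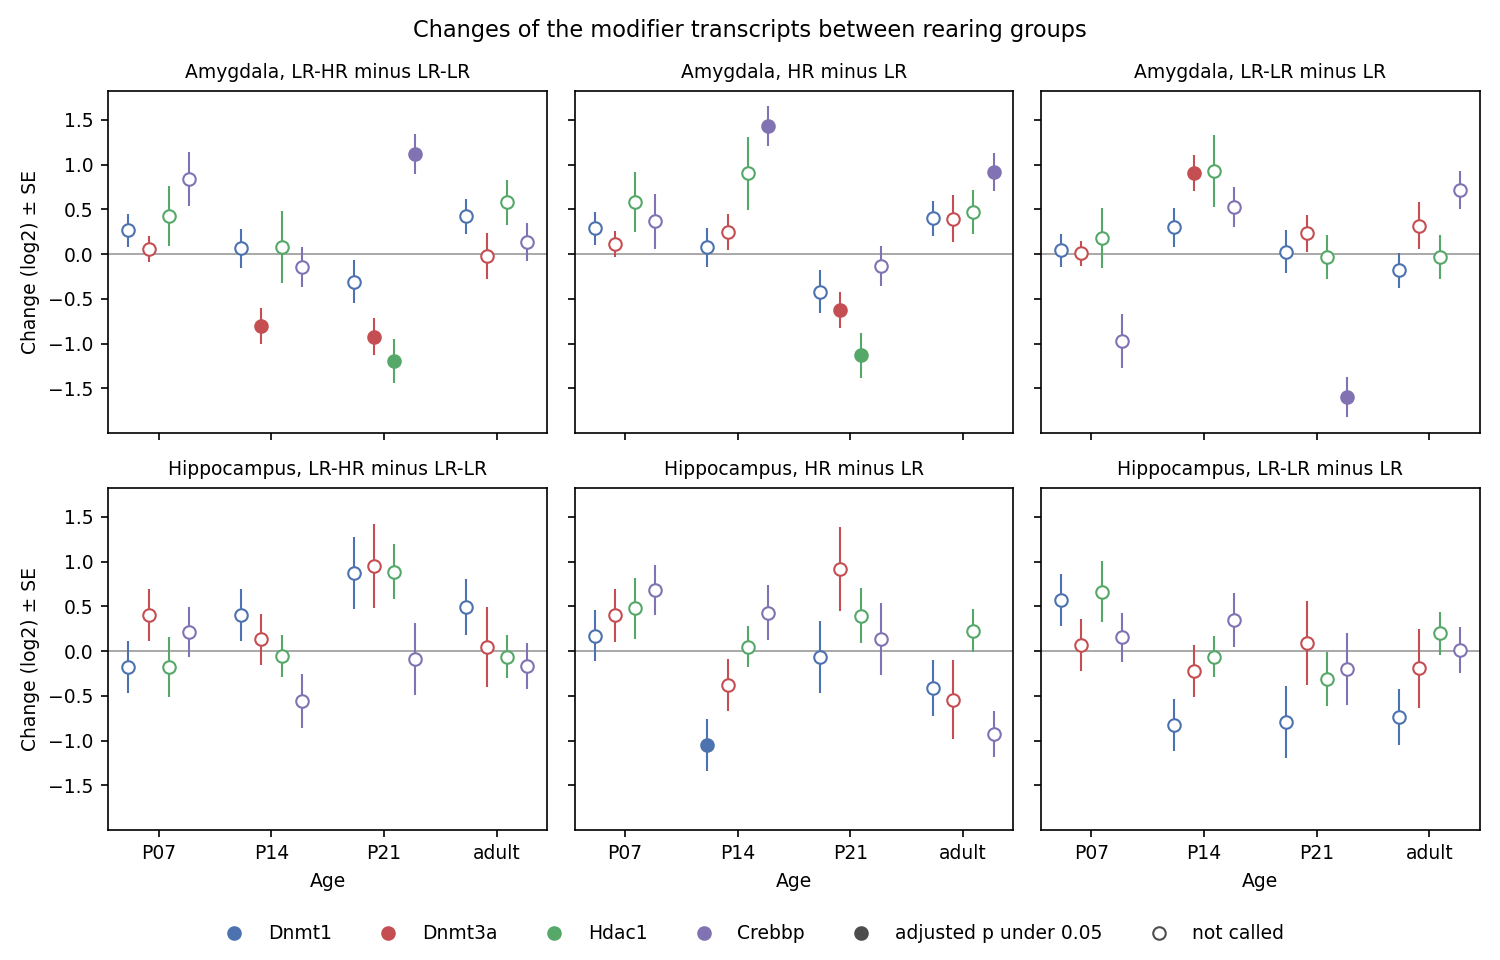
Difference in log2 intensity with its standard error for Dnmt1, Dnmt3a, Hdac1 and Crebbp at 4 ages in the amygdala and hippocampus, for LR-HR minus LR-LR, HR minus LR and LR-LR minus LR, with filled points for an adjusted p under 0.05. In the amygdala at P21, LR-HR minus LR-LR is -0.92 for Dnmt3a, -1.20 for Hdac1 and 1.11 for Crebbp, and the only filled point in the hippocampus is Dnmt1 at P14 (HR minus LR, -1.05).

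Whether the differences between rearing groups depended on age was tested in each region by an F test over the 4 ages (limma). In the amygdala the foster difference varied with age for Dnmt3a (adjusted p = 0.00173), Hdac1 (0.00376) and Crebbp (0.00405), and the line difference did so for the same 3 genes (0.00714, 0.000758 and 0.000619). For Hdac1 the line difference was 0.58, 0.90, -1.13 and 0.47 at P07, P14, P21 and P75, so its sign at P21 was opposite to that at the other ages. Dnmt1 did not pass either test (0.131 and 0.0604). Without the arrays numbered 4 the line difference of Dnmt1 passed (0.0117) and that of Dnmt3a did not (0.0587), and without those numbered 2 the Dnmt3a result was 0.0715. These 3 of 4 genes stand beside 41.7% and 41.6% of all transcripts. In the hippocampus none of the 4 passed for either difference (adjusted p 0.144 to 0.922), against 4.69% and 0.992% of transcripts. Without LR-LR arrays 4 and 5 of P21 the foster difference passed for Dnmt1 (0.0134), Dnmt3a (0.0423) and Hdac1 (0.0315). Without LR-LR arrays 1 to 3 it did not (0.657, 0.889 and 0.911). The arrays to leave out were chosen after the arrays had been compared, so these p-values only describe the arrays kept.

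The foster difference was also compared between the regions. The fit took all arrays of an age as independent, with 1 spread for both regions and no term for the animal. At P21 the amygdala difference minus the hippocampus difference was -2.09 ± 0.39 for Hdac1 (adjusted p = 0.000806) and -1.87 ± 0.53 for Dnmt3a (adjusted p = 0.0115). It was -1.19 ± 0.48 for Dnmt1 (0.0703, and 0.0415 or 0.0333 without the arrays numbered 4 or 5) and 1.20 ± 0.48 for Crebbp (0.0639). The 2 genes called of 4 stand beside 20.9% of transcripts. Neither was called without LR-LR arrays 1 to 3 of the hippocampus, where the values were -1.61 for Hdac1 (adjusted p = 0.131) and -0.52 for Dnmt3a (0.655). The Dnmt3a call was also lost without the arrays numbered 1 (-1.90, adjusted p = 0.0688), 2 (-1.31, 0.160) or 3 (-1.77, 0.0514). At P07, P14 and P75 no gene was called (0.225%, 2.53% and 5.11% of transcripts).

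The wider set of DNA methylation, histone modification and CREB pathway genes held 132 names, of which 49 were measured, 45 besides the 4 genes above. In the amygdala, the foster comparison called 2 of the 45 higher and 15 lower at P14 (median difference -0.46), 1 higher and 17 lower at P21 (median -0.54), and 16 higher and 1 lower in adults (median 0.48). The medians of all transcripts were -0.02, -0.15 and 0.12. Of all transcripts, 8.52% were called higher and 13.7% lower at P14, 6.14% and 15.5% at P21, and 17.2% and 4.55% in adults. At P07 none of the 45 was called (limma), and 10 had an unadjusted p under 0.05. After quantile normalization the counts were 2 and 12, 1 and 12, and 9 and 2, with the same directions.

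Named by role at P21, the demethylation genes Apobec1 (-1.27 ± 0.27) and Idh1 (-0.90 ± 0.24) were lower in LR-HR than in LR-LR. In this comparison 15.5% of all transcripts were called lower and 6.14% higher. Of 18 listed deacetylases and sirtuins only 4 were measured, and all 4 were called lower: Hdac1, Sirt5 (-0.87 ± 0.24), Hdac3 (-0.81 ± 0.23) and Sirt6 (-0.67 ± 0.19). Of 6 corepressor subunits, Gatad2b (-1.06 ± 0.21), Mta1 (-1.0 ± 0.24) and Rcor2 (-0.62 ± 0.20) were lower, and Sap18, a subunit of the Sin3 complex, was higher (1.13 ± 0.20). Of 9 genes of the CREB pathway 5 were lower, among them the transcription factor Atf2 (-1.47 ± 0.25) and the CREB coactivator Crtc2 (-1.34 ± 0.21). Crebbp was the only one of 7 acetyltransferases called at P21. The histone methyltransferases Carm1 (-0.82 ± 0.20) and Smyd3 (-0.60 ± 0.21) and the demethylase family gene Kdm8 (-1.05 ± 0.32) were also lower.

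At P14 the foster comparison had lower levels of Prkacb, a catalytic subunit of protein kinase A (-1.90 ± 0.22), Atf2 (-1.55 ± 0.23), the acetyltransferase Clock (-1.26 ± 0.33), Carm1 (-1.18 ± 0.23) and the methylcytosine oxidase Tet3 (-1.02 ± 0.29). Sap18 (0.89 ± 0.20) and Gadd45b (0.99 ± 0.31), a DNA damage response gene linked to demethylation, were higher. In adults Prkacb (1.37 ± 0.18), the methyl-DNA reader Mbd1 (1.35 ± 0.23) and the acetyltransferase Kat2b (1.10 ± 0.29) were higher in LR-HR, and Dnmt3l, a partner of Dnmt3a, was lower (-0.85 ± 0.28). None of the 4 genes was called in that adult comparison, in which 21.7% of transcripts were.

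The line comparison in the amygdala called 18 of the 45 higher and 1 lower at P14, 1 higher and 13 lower at P21, and 20 higher and 2 lower in adults. Over all transcripts the shares were 12.8% higher and 9.98% lower at P14, 4.03% and 11.6% at P21, and 20.2% and 7.88% in adults. Quantile normalization gave 17 and 1, 1 and 7, and 9 and 2. Among those called were Apobec1 (2.84 ± 0.57) and Crtc2 (1.88 ± 0.19) at P14, Gadd45a (-1.24 ± 0.30) at P21, and Prkacb (1.68 ± 0.18) and Carm1 (1.57 ± 0.16) in adults. Sap18 again stood against the majority, at -1.09 ± 0.20, 0.79 ± 0.20 and -1.07 ± 0.25 at these ages. LR-LR minus LR called 28 higher and 1 lower at P14 (22 and 2 after quantile normalization), led by Atf2 (1.99 ± 0.23) and Prkacb (1.90 ± 0.22), and none of the 45 at P21 or in adults (limma; 3 and 6 had an unadjusted p under 0.05). In that comparison 24.9% of all transcripts were called higher and 12.7% lower at P14, with 0.0135% called either way at P21 and 0.658% in adults.

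**Figure D4:**
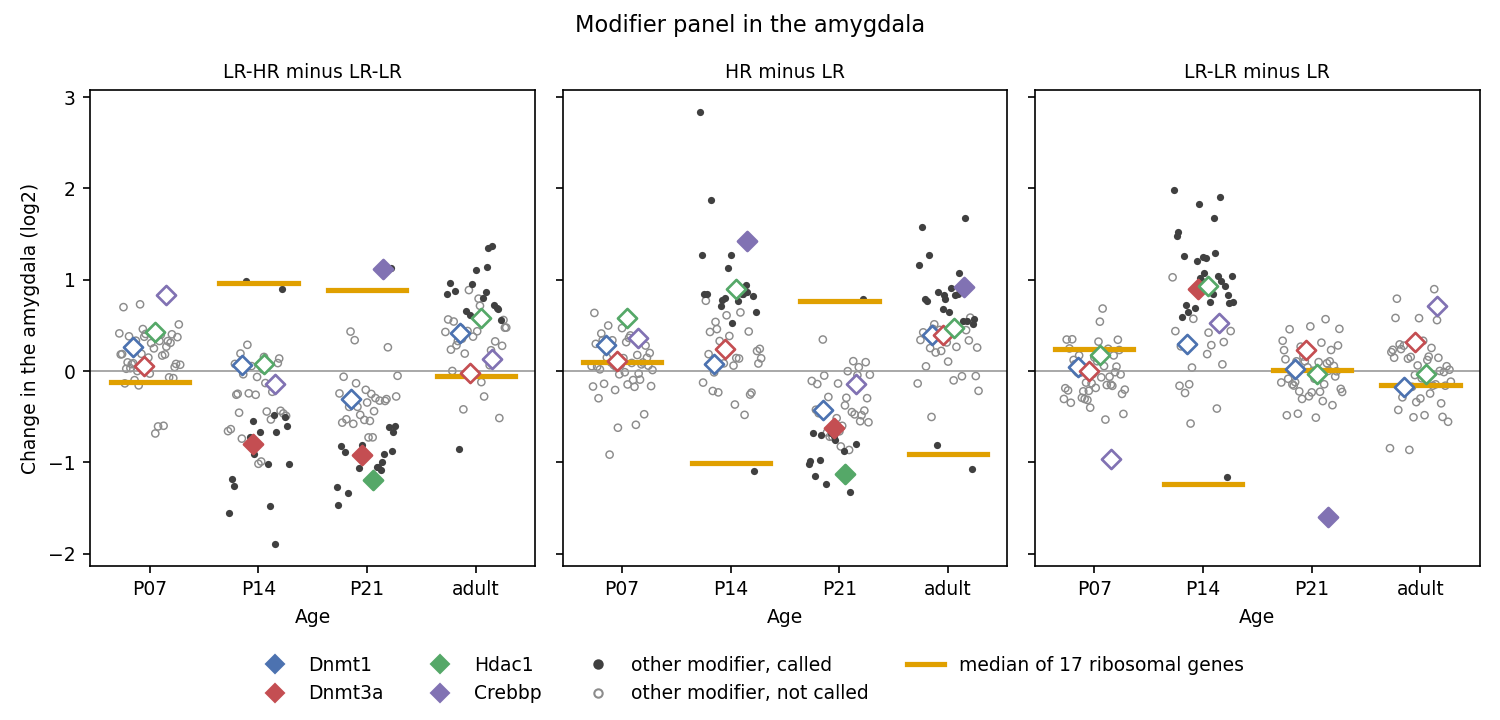
Difference in log2 intensity in the amygdala of the 45 other modifier genes (circles, filled where called), of Dnmt1, Dnmt3a, Hdac1 and Crebbp (diamonds) and the median of 17 ribosomal protein genes (lines), for the 3 comparisons of rearing groups at P07, P14, P21 and P75. For LR-HR minus LR-LR the medians of the 45 genes at these ages are 0.18, -0.46, -0.54 and 0.48.

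Ribosomal protein genes and markers of cell types differed in the same comparisons. Of 17 measured ribosomal protein genes, LR-HR minus LR-LR in the amygdala called 15 higher at P14 (median 0.96) and 13 higher at P21 (median 0.89), and 1 lower in adults. HR minus LR called 17 lower at P14 (median -1.01), 11 higher at P21 (median 0.77) and 15 lower in adults (median -0.91), and LR-LR minus LR called 15 lower at P14 (median -1.24). Of all transcripts, LR-HR minus LR-LR called 8.52% higher at P14, 6.14% higher at P21 and 4.55% lower in adults. HR minus LR called 9.98% lower, 4.03% higher and 7.88% lower at these ages, and LR-LR minus LR called 12.7% lower at P14. At P21 the summed ribosomal intensity was 81797 to 117869 in LR-HR, 48440 to 55016 in LR-LR, 78195 to 92134 in HR and 46381 to 56571 in LR. LR-HR and HR thus lay above LR-LR and LR, where for Hdac1 they lay below.

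Striatal projection neuron markers (10 measured) were called lower in 7 of 10 at P14 and 5 of 10 at P21 in LR-HR against LR-LR, and higher in 9 of 10 in adults. Their summed intensity at P14 was 11022 to 15255 in LR-HR and 27625 to 37504 in LR-LR, and at P21 17923 to 37321 and 29990 to 38044. General neuron markers (9 measured) were called lower in 4 at each of P14 and P21 and higher in 7 in adults, with summed intensities at P21 of 60633 to 85816 in LR-HR and 88447 to 108615 in LR-LR. In HR minus LR, mature oligodendrocyte markers were called higher in 10 of 10 at P14 (median 2.10; summed 29500 to 83725 in HR and 5992 to 8110 in LR) and lower in 6 of 10 at P21 (median -0.70; 39257 to 53503 in HR and 59722 to 81406 in LR). Of all transcripts, LR-HR minus LR-LR called 13.7% lower at P14, 15.5% lower at P21 and 17.2% higher in adults. HR minus LR called 12.8% higher at P14 and 11.6% lower at P21. The part of the ribosomal and marker lists in the differences of Dnmt3a, Hdac1, Crebbp and the 45 other genes was not tested.

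The hippocampus had few calls among the 45 genes, and few among all transcripts. The foster comparison at P07 called 4 higher, Prkacb (2.02 ± 0.34), Atf2 (1.28 ± 0.28), Idh1 (1.04 ± 0.28) and Crtc1 (0.94 ± 0.25), and at P21 it called the acetyltransferase Kat7 (1.29 ± 0.30), beside 2.91% and 0.969% of all transcripts. LR-LR minus LR called 2 of the 45 lower at P07, Prkacb (-1.26 ± 0.34) among them, and 1 higher at P14, beside 2.59% and 1.53% of all transcripts. HR minus LR called none of the 45 at any age (limma; 0 to 5 had an unadjusted p under 0.05). The alternatives that follow were chosen after the arrays had been compared, so their counts only describe the arrays kept. At P21, without LR-LR arrays 4 and 5, the foster comparison called 24 of the 45 higher and none lower, beside 21.7% of all transcripts. Without LR-LR arrays 1 to 3 it called 0 of the 45 (limma; 4 had an unadjusted p under 0.05) and 0.00772% of all transcripts.

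Other modifiers changed with age as well. Counting all 49 genes, 9 were higher and 4 lower between P07 and P14 in the amygdala, 11 and 3 between P14 and P21, and 1 and 13 between P21 and P75. Of all transcripts, 14.9% were called higher and 12.7% lower in the first of these steps, 9.44% and 5.83% in the next, and 8.01% and 11.7% in the last. The step in which Dnmt1 fell had Idh1 lower (-1.32), Apobec1 higher (1.46) and Gadd45a higher (0.95), and the last step, in which Dnmt3a fell most, had the corepressor subunit Rcor2 (-0.70) and the DNA glycosylase Tdg (-0.60) lower. In the hippocampus the counts were 1 and 9, 7 and 1, and 6 and 3, against 7.44% and 4.71%, 8.65% and 11.5%, and 10.2% and 4.99% of all transcripts. Over the same first step, markers of proliferating cells fell in 3 of 5 measured in the amygdala (median -0.49). Mature oligodendrocyte markers rose there in 9 of 10 (median 1.72) and then in 10 of 10 (median 1.95). Other lists moved in that first step too: astrocyte markers rose in 9 of 10, microglia markers rose in 7 of 8, and ribosomal protein genes fell in 17 of 17. In the hippocampus the first step had 2 of 7 proliferating cell markers lower (median -0.33) and 8 of 10 mature oligodendrocyte markers higher. The part of these lists in the course of Dnmt1 and Dnmt3a was not tested.

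How alike the 4 genes ran was described over the 16 group means of a region, which share arrays within an age and carry the changes with age. Dnmt1 and Dnmt3a had a Pearson r of 0.623 in the amygdala, 0.588 in hippocampal groups, and the other pairs lay between -0.380 and 0.186. The named transcripts most like Dnmt1 were Evl (0.963), Mpped2 (0.953) and Gpr12 (0.946) in the amygdala and Ppm1g (0.909), Pdcl3 (0.897) and Ptma (0.882) in the hippocampus. Those most like Dnmt3a were Calb2 (0.951), Eln (0.946) and Bdh1 (0.944), and in the hippocampus Marcksl1 (0.921), Tdg (0.915) and Ppp1r14c (0.890). For Hdac1 they were Ilk (0.934), Wrap53 (0.931) and Polr3c (0.929) in the amygdala and Dgka (0.887), Hexim1 (0.861) and Srgn (0.858) in the hippocampus. Crebbp had weaker matches: Jak3 (0.757), Pmp22 (0.683) and Dmrtc1b (0.678) in the amygdala and Tex29 (0.804), Akap1 (0.787) and Ncoa2 (0.734) in the hippocampus. Against the marker lists in the amygdala, Dnmt1 was most like proliferating cells (0.876), Dnmt3a likewise (0.714), and Hdac1 was most like endothelial cells (0.805) and neurons (0.776) and ran against ribosomal proteins (-0.707).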

How the data were processed

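The deposited values are linear intensities of 1-colour arrays that the authors made by RMA (background correction, quantile normalization and probe summary), per the submitters' processing notes, which give no version. The values themselves show that the regions were normalized separately (22197 transcripts in the amygdala, 25897 in the hippocampus, 22192 in both), so tests ran within a region except for the regional difference of the foster comparison. Intensities were converted to log2 here without a pseudocount or filter. Array medians were 177 to 235 in the amygdala and 114 to 130 in the hippocampus, so the transcript values of a region do not share 1 distribution. In the amygdala at P21 the medians were 183 to 216 in LR-HR and HR and 212 to 235 in LR-LR and LR. The part of this in the differences at P21 was not tested beyond the quantile normalization reported below. Precision is set by the number of arrays, since intensities carry no counts. No source used here gives slides or scan dates.

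Symbols came from the RefSeq gene table of GRCr8 (9506 of 25903 identifiers matched, 1 row for each measured gene). limma 3.58.1 in R 4.3.3 fitted the 20 arrays of a region and age, with the contrasts LR-HR minus LR-LR (foster), HR minus LR (line) and LR-LR minus LR, the 80 arrays of a region for age steps (averaged over rearing groups) and F tests between ages, and both regions of an age for the regional difference. All adjusted p-values are from limma, with Benjamini-Hochberg adjustment over all transcripts, and under 0.05 counted as called. The fits were tested on simulated data. Named were the 5 genes, the 3 transcripts most like each, and the called members of each pathway list by size, up to 3 in each direction; some called genes are not reported here. The genes and lists were chosen with earlier results of these data known.

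Replicate numbers come from the sample titles. Deviations from group means correlated more between same-numbered arrays (median 0.233) than between others (-0.0573), and every pair passed 0.1 in 8 of 24 comparisons. The reported fits have no block, also in those 8. The fit with the block is an alternative. Its share of calls stands beside the reported one in the 7 of those 8 where it moved the count over 1.5 times, and in some other comparisons. The alternatives were quantile normalization again, a filter on dim transcripts (mean under the median of all), log2 of intensity plus 32, a trended and robust eBayes fit, only the compared groups, the replicate number as a block, pups with their own mothers only for age steps, and each array left out. The fits without several LR-LR arrays of the hippocampus at P21 were not planned and were added after the arrays had been compared.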

Additional observations from a re-analysis of the deposited data

Results flagged for a closer look

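In 12 of the 128 groups of 5 arrays (4 genes, 32 groups), the highest or lowest array stood far from the others, by a gap over 0.71 of the group's range, and chance gives about 1 group in 20. In the amygdala these were Hdac1 in LR-LR at P07 (replicate 3, 6.77, with the others at 8.52 to 8.95), Hdac1 in HR at P14 (replicate 1, 7.99), Crebbp in LR at P14 (replicate 1, 7.39), Dnmt1 in LR at P21 (replicate 1, 10.96) and Dnmt3a in HR at P21 (replicate 3, 10.94). In the hippocampus they were Dnmt1 in LR-HR at P07 (replicate 5, 10.68), Dnmt1 and Dnmt3a in LR at P07 (replicate 5, 10.28 and 10.56), Dnmt1 in LR at P14 (replicate 3, 9.96), Dnmt3a in LR-HR and LR-LR in adults (replicate 5, 9.18 and 9.53) and Hdac1 in LR-HR in adults (replicate 3, 7.19). Of the 7 in the hippocampus, 5 were replicate 5 and lay above their group.

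The differences between rearing groups in the amygdala varied with age (F test over 4 ages, limma). The adjusted p for the foster comparison was 0.00173 for Dnmt3a, 0.00376 for Hdac1 and 0.00405 for Crebbp, and for the line comparison 0.00714, 0.000758 and 0.000619. The Dnmt3a line result was lost without the arrays numbered 2 (0.0715) or 4 (0.0587). The foster comparison at P21 differed between amygdala and hippocampus by -1.87 for Dnmt3a (adjusted p = 0.0115) and -2.09 for Hdac1 (0.000806). Without LR-LR arrays 1 to 3 of the hippocampus these were -0.52 (0.655) and -1.61 (0.131).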

How the results depend on the processing

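Of the recomputed gene results, 1927 kept their side of the threshold, 36 were lost, 28 were gained and 1 called result turned. Of the 1896 with a sign, 1795 kept it, and all but 1 of those that did not (100) belonged to differences that were not called as reported. The turned one, Crebbp from P21 to P75 in the amygdala, was -0.15 over pups with their own mothers. All 11 called differences kept their sign after quantile normalization, and 10 stayed called. The number of the 4 genes called moved as follows. It was 1 (2 as reported) for HR minus LR in the amygdala at P21 after quantile normalization and with only the 2 groups fitted, 2 (1 as reported) for LR-LR minus LR at P14 with the dim filter and with the replicate block, and 0 (1 as reported) for HR minus LR in the hippocampus at P14 with only the 2 groups. It was 1 (0 as reported) for LR-LR minus LR in the hippocampus at P07 with the replicate block. For age steps it was 1 (2 as reported) from P21 to P75 over pups with their own mothers in the amygdala and hippocampus and after quantile normalization in the hippocampus, and 2 (1 as reported) from P07 to P14 in the hippocampus after quantile normalization and with the dim filter, through Hdac1 (0.38 ± 0.14, adjusted p = 0.0564; 0.0277 and 0.0352 in these settings). Without both LR-LR arrays 4 and 5 in the hippocampus at P21, an unplanned choice, it was 3 (0 as reported) for the foster comparison. For LR-LR minus LR it was then 1 (0 as reported), through Dnmt1 (-1.59, adjusted p = 0.00268). Leaving out 1 array gave 1 to 2 genes for HR minus LR at P14 and P21 and for LR-LR minus LR at P14 in the amygdala, 0 to 1 for LR-LR minus LR at P21, 0 to 2 for the foster comparison in adults, 0 to 1 for HR minus LR in the hippocampus at P14, 0 to 2 for the foster comparison there at P21, and 1 to 2 for its first and last age steps. The replicate block changed the call of Crebbp in LR-LR minus LR in the amygdala at P14 (0.53, adjusted p = 0.0448, against 0.0718), where the numbers did not pair by rule, and of Dnmt1 in the hippocampus at P07 (0.0470, against 0.435), and no other call of the 4 genes. It moved the count of transcripts called by over 1.5 times in 13 of 24 comparisons.

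Without LR-LR arrays 4 and 5 of the hippocampus at P21, again the unplanned choice, the regional difference of Dnmt1 was -1.98 (adjusted p = 0.000141). Among all transcripts, quantile normalization changed the calls of HR minus LR in the amygdala at P21 to 2242 (3479 as reported), and moved the share called higher to 44.8% (28.4% as reported) for the foster and 47.7% (25.7% as reported) for the line comparison at P21, and to 64.8% (79% as reported) and 58.6% (71.9% as reported) in adults. It moved the median of all transcripts at P21 to -0.05 (-0.15 as reported) and -0.03 (-0.14 as reported) in these comparisons. The foster comparison in the hippocampus at P21 called 251 transcripts, 5616 without LR-LR arrays 4 and 5 and 2 without arrays 1 to 3. A mean over several rows of a gene was not run, since each gene had 1 row. The causes were not tested.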

Other observations

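Replicate numbers recurred at the top of their groups in the hippocampus. Replicate 5 held the highest Dnmt1 level in 13 of 16 groups, the highest Dnmt3a level in 12 and the highest Hdac1 level in 8, but the highest Crebbp level in 1. In the amygdala replicate 4 was the highest in 8 groups for Dnmt1 and in 7 for Dnmt3a. What the numbers stand for is not given in the sources used here.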
